A study of Homo sapiens with 16 samples.

Results

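H3K27me3, the repressive mark of the Polycomb system, was profiled by CUT&Tag in BE2C cells treated with GSK-J4 or with its solvent, and the lists of enriched islands and narrow peaks were compared. The members of the comparison were taken from the antibody and treatment labels: 4 of the 16 libraries of the series, 2 from DMSO-treated and 2 from GSK-J4-treated cells. BE2C is an established human neuroblastoma line with MYCN amplification. The DMSO group received 0.1% DMSO and the GSK-J4 group 2.5 µM GSK-J4, both for 72 h and in unmodified cells of that single line. The study describes the libraries of a group as biological replicates. CUT&Tag binds an antibody to the mark inside nuclei and tethers a transposase to it, so that only DNA near the mark is cut and sequenced.

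H3K27me3 is written by Polycomb repressive complex 2, in which EZH2 is the methyltransferase and EED and SUZ12 are core subunits, and it is removed by the demethylases KDM6A and KDM6B. In most cell types it lies over silent developmental genes, where it forms broad domains that reach across whole HOX clusters, and it is scarce at housekeeping genes. GSK-J4 is a cell-permeable ester that cells convert to GSK-J1, an inhibitor of both KDM6 enzymes. The lists hold islands, which are runs of enriched 200 bp windows joined across gaps of up to 600 bp by SICER, and narrow peaks, which are short summits called by MACS2. They hold no expression, so the cell type could not be checked against marker transcripts, but the mark itself could. An island reached the start of 33 of 39 HOX genes in each of the 4 libraries and of 75 to 77 of 95 other homeobox genes, against 3 to 5 of 82 ribosomal protein genes.

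Depth differed between the libraries, and the island caller treated one of them differently. The island scores could be solved for the number of reads behind each library, which gave 2270156 and 2577701 for DMSO replicates 1 and 2, and 3860371 and 2828543 for GSK-J4 replicates 1 and 2. The number for DMSO replicate 2 is the least certain, since only 2 of its 7 narrow islands shared the same solution. SICER keeps a window when its count has a chance probability below 0.2, and at these depths 1 read was enough in both DMSO libraries and in GSK-J4 replicate 2, whereas 2 reads were needed in GSK-J4 replicate 1. The scores of narrow islands bore this out. With windows of 1 read allowed, 12 of 13 scores in DMSO replicate 1, 7 of 7 in DMSO replicate 2 and 6 of 6 in GSK-J4 replicate 2 could be rebuilt, against 4, 5 and 4 without them, and in GSK-J4 replicate 1 143 of 150 were rebuilt either way. GSK-J4 replicate 2 shares its window minimum with both DMSO libraries, and GSK-J4 replicate 1 is given apart throughout. The part of the window minimum and of depth in the results was not tested.

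The start regions of 3 of the genes named below are shown as examples of a gained and of lost starts, and they are not typical of either kind. At the start of FBXW5, both GSK-J4 libraries and neither DMSO library had an island within 1 kb. RNASE2 and KRT27 had an island at the start in both DMSO libraries and in neither GSK-J4 library. Each run is the 200 bases before the annotated gene start in hg19, written 5′ to 3′ on the gene's strand, with every CG dinucleotide in capitals. The windows lie at chr9:139839191-139839390 (minus strand, FBXW5), chr14:21423446-21423645 (plus, RNASE2) and chr17:38938803-38939002 (minus, KRT27), and none overlaps an annotated exon.
FBXW5: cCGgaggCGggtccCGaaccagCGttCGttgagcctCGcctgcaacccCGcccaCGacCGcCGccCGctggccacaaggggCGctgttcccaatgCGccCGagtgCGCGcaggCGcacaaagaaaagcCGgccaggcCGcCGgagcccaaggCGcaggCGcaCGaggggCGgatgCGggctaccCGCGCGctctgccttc
RNASE2: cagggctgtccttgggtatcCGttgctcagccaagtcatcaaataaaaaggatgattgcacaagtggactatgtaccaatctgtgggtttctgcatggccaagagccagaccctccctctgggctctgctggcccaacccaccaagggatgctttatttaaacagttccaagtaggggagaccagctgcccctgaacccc
KRT27: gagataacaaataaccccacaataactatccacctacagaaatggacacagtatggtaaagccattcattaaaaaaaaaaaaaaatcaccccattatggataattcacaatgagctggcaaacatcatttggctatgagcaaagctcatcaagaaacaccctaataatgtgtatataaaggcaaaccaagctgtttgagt

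CG dinucleotides are the sequence feature that Polycomb targets are best known for, and their number varied between these starts. FBXW5 held 28, RNASE2 held 1 and KRT27 none, all outside the interquartile range of their kind. Over all genes, the median number in this window was 12 for the 175 starts called in both GSK-J4 libraries only, 14.5 for the 26 called in both DMSO libraries only, 14 for the 2606 called in all 4 and 11 for the 15190 called in none. The interquartile ranges, 4 to 23, 4.25 to 21.8, 6 to 22 and 3 to 19 in the same order, overlapped, and no test was made.

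Domain size was where the replicates parted. In GSK-J4 replicate 1, islands of under 5 kb made up most of the list, and wide domains were fewer than in any other library. In GSK-J4 replicate 2, the order was the other way round, with fewer short islands and more wide ones than in either DMSO library. Islands of 2 to 5 kb numbered 2027 and 1824 in DMSO replicates 1 and 2, 9238 in GSK-J4 replicate 1 and 1683 in GSK-J4 replicate 2. Islands of 1 to 2 kb numbered 83, 65, 3196 and 65 in the same order, and islands under 1 kb 6, 5, 376 and 1. From 5 kb upward the picture turned. Islands of 10 to 20 kb numbered 1358 and 1652 in DMSO, 721 in GSK-J4 replicate 1 and 1992 in GSK-J4 replicate 2, and islands of 50 kb or more numbered 15 and 19, 4 and 23. The DMSO values lay between the GSK-J4 values in every width class except islands of 1 to 2 kb, where GSK-J4 replicate 2 equalled DMSO replicate 2.

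**Figure D1:**
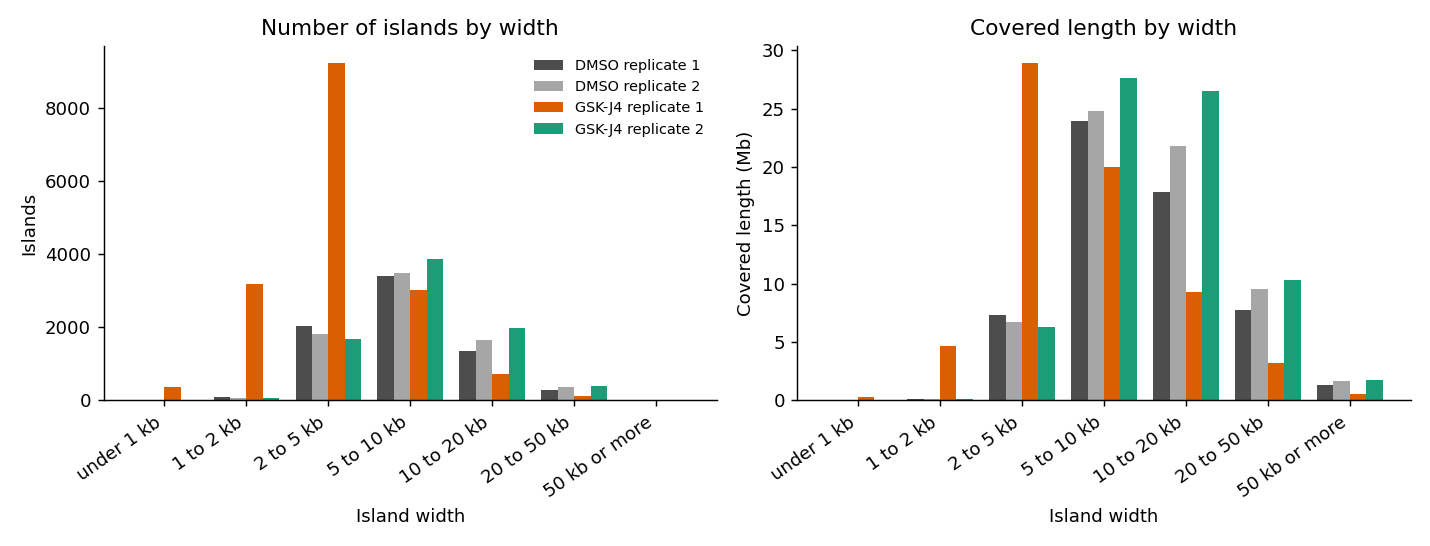
Number of islands (left) and covered length in Mb (right) by island width, with 1 bar per library. GSK-J4 replicate 1 stands above the rest below 5 kb, with 9238 islands of 2 to 5 kb, and GSK-J4 replicate 2 is the highest from 5 kb upward, with 1992 islands of 10 to 20 kb.

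Domains of 20 kb or more covered 9.04 Mb and 11.2 Mb in DMSO, 3.73 Mb in GSK-J4 replicate 1 and 12.1 Mb in GSK-J4 replicate 2. The groups overlapped, and the difference of their means, which fell by 2.21 Mb with GSK-J4, had an exact two-sided permutation p of 1. Without GSK-J4 replicate 1 the difference was 1.98 Mb in the other direction. The median island width, 6.6 kb and 7 kb in DMSO against 3 kb and 7.4 kb in GSK-J4, likewise had p = 1 in the exact permutation test, and without GSK-J4 replicate 1 the difference was 600 bp upward. For comparisons of 2 against 2 libraries the smallest p that this test can give is 0.3333, so none could pass a threshold of 0.05. Covered length was higher in both GSK-J4 libraries than in both DMSO libraries by 8.27 Mb on average (exact permutation p = 0.3333). This direction turned when the same number of islands was taken from each library, to a difference of -5.55 Mb. Covered length was then 58.3 Mb and 63.5 Mb in DMSO, 42.8 Mb in GSK-J4 replicate 1 and 67.9 Mb in GSK-J4 replicate 2, so replicate 2 still lay above both DMSO libraries and replicate 1 below both.

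The wide DMSO domains were not gone from GSK-J4 replicate 1 but were broken up in its list. Of the 375 domains of 20 kb or more in DMSO replicate 2, 1 held no island of GSK-J4 replicate 1, and a median of 79.9% of a domain's length was covered there. In DMSO replicate 1 and in GSK-J4 replicate 2 the covered medians were 91.4% and 94.8%. Among these domains, 3 or more separate islands lay in 35.7% in GSK-J4 replicate 1, against 7.47% in DMSO replicate 1 and 6.93% in GSK-J4 replicate 2. The 307 wide domains of DMSO replicate 1 gave the same order, with 31.3% in 3 or more pieces in GSK-J4 replicate 1 and 3.26% in both of the other libraries. For domains of 5 to 20 kb in DMSO replicate 1, GSK-J4 replicate 1 lacked any island in 3.07%, GSK-J4 replicate 2 in 7.58% and DMSO replicate 2 in 8.86%. GSK-J4 replicate 2 thus missed a smaller share of these control domains than the other control library did.

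The HOX clusters are the widest Polycomb domains of most genomes and give the same reading in single loci. HOXA on chromosome 7, which holds 11 HOX genes in 107.1 kb, was covered over 96.5% and 98.5% in DMSO, 83.4% in GSK-J4 replicate 1 and 98.0% in GSK-J4 replicate 2. Its length fell into 5 and 2 islands in DMSO, 8 in GSK-J4 replicate 1 and 3 in GSK-J4 replicate 2. HOXB on chromosome 17 was covered over 82.7% and 74.4% in DMSO, 65.2% in GSK-J4 replicate 1 and 77.5% in GSK-J4 replicate 2. HOXC on chromosome 12 was covered over 75.4% and 76.3%, 70.6% and 73.5% in that order, and HOXD on chromosome 2 over 16.04% and 17.1%, 13.4% and 14.6%. GSK-J4 replicate 1 was the lowest library at all 4 clusters. GSK-J4 replicate 2 lay within the DMSO values at HOXA and HOXB and below them at HOXC and HOXD.

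New length was laid down in a different way in the 2 GSK-J4 libraries. In GSK-J4 replicate 1, 17.5 of the Mb outside both DMSO lists sat in 7140 separate islands with a median width of 2.2 kb, and 1.20 Mb extended islands that DMSO shared. In GSK-J4 replicate 2, 7.05 Mb sat in 986 separate islands with a median width of 6.6 kb, and 7.67 Mb extended shared ones. Separate islands therefore made up 93.6% of the outside length in GSK-J4 replicate 1 and 47.9% in GSK-J4 replicate 2. Set against DMSO replicate 1 alone, GSK-J4 replicate 2 had 32.9% of its length outside, and DMSO replicate 2 had 26.3% outside.

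Depth moved with these lengths in the 3 libraries that shared a window minimum. From DMSO replicate 1 to DMSO replicate 2, reads rose by 13.6%, covered length by 10.9% and narrow peaks by 16.7%. From DMSO replicate 2 to GSK-J4 replicate 2, reads rose by 9.74%, covered length by 12.3% and narrow peaks by 16.9%. For covered length and narrow peaks the step between treatments was close in size to the step between the control replicates. For other measures it was not. Island number rose by 3.11% between the DMSO libraries and by 8.22% from DMSO replicate 2 to GSK-J4 replicate 2. Length in domains of 20 kb or more rose by 23.9% and 8.04% in the same order. The part of depth was not tested. When these 3 lists were merged into 8487 regions, 986 were called in GSK-J4 replicate 2 alone, 326 in DMSO replicate 1 alone and 403 in DMSO replicate 2 alone. The number called in all but GSK-J4 replicate 2 was 320, against 604 for all but DMSO replicate 1 and 362 for all but DMSO replicate 2. GSK-J4 replicate 2 had the most regions of its own and the fewest missing, and it was also the deepest of the 3.

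Over all 4 libraries, islands that shared at least 1 bp were joined into 14492 regions. A region was called gained when both GSK-J4 libraries and neither DMSO library had an island in it, which held for 5.85% of regions, and lost in the opposite case, which held for 0.255%. These are 848 and 37 regions. With equal numbers of islands they became 183 gained and 310 lost, so that the direction of the imbalance turned. With equal covered length they became 180 gained and 74 lost, and the direction held. Regions of GSK-J4 replicate 1 alone numbered 6029, or 41.6%, with a median width of 2.2 kb, and regions of GSK-J4 replicate 2 alone numbered 132 with a median width of 10.3 kb. Without GSK-J4 replicate 1, gained regions numbered 986 and lost regions 320, and without GSK-J4 replicate 2 they numbered 7140 and 74. As a measure of disagreement with no treatment in it, 270 regions were called in DMSO replicate 1 and GSK-J4 replicate 1 only, 319 in DMSO replicate 2 and GSK-J4 replicate 1 only, and 15 and 19 in GSK-J4 replicate 2 with DMSO replicate 1 or 2 only.

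The gained regions were shorter and poorer in CG than those called throughout. Their median width was 6.2 kb, their median GC content 49.8% and their median ratio of observed to expected CG 0.243, against 10 kb, 52.4% and 0.328 in the 5441 regions called in all 4 libraries. A start of a protein-coding gene lay within 1 kb of 21.9% of gained regions and of 48.1% of regions called in all 4. Over all merged regions the median width was 5 kb, the ratio 0.282 and the share at a start 32%. Lost regions, of which there were 37, had a median width of 8.4 kb and a ratio of 0.355, and 40.5% of them lay at a start. The regions of GSK-J4 replicate 1 alone resembled the gained ones in this, with a ratio of 0.247 and 20.1% at a start. These are descriptions of lists and carry no test.

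The overlap with other lists of the series was low for lost regions in H3K4me1 and near the background for gained ones. H3K4me1, a mark of enhancers and of the flanks of active starts, was profiled in the same DMSO-treated and GSK-J4-treated line. Of the gained regions, 73.9% overlapped H3K4me1 islands of both DMSO libraries, whereas 5.41% of the lost regions did. Over all merged regions the share was 73.4%, so the gained regions lay at the background. Every one of the lost regions overlapped H3K27me3 islands of both libraries transfected with control siRNA, against 27% of the gained regions and 32.4% of all. The same contrast separated regions called in GSK-J4 replicate 1 from those not called there. Of the 14118 regions called in that library 75.2% overlapped H3K4me1, and of the 374 it lacked 5.61% did. For GSK-J4 replicate 2 the shares were 70.8% of the called and 76.2% of the uncalled regions, and for DMSO replicate 1 69.5% and 76.6%. The 132 regions of GSK-J4 replicate 2 alone behaved like the lost ones, with 3.03% overlapping H3K4me1 and 75.8% overlapping control H3K27me3. Whether the overlap comes with the mark or with the calling was not tested.

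**Figure D2:**
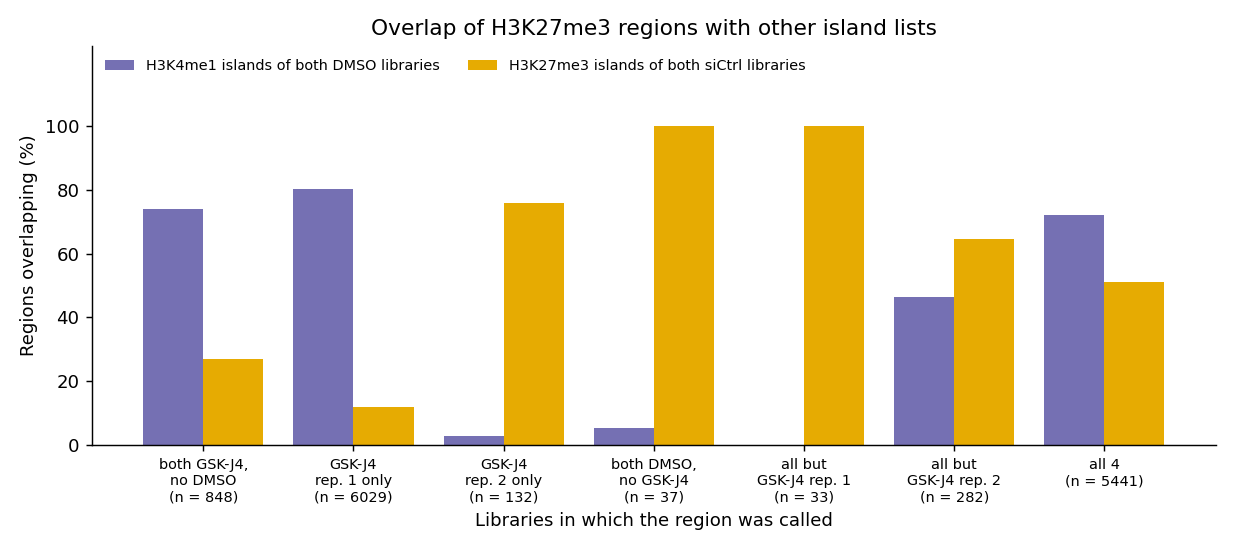
Percent of merged H3K27me3 regions that overlap H3K4me1 islands of both DMSO libraries or H3K27me3 islands of both control siRNA libraries, by the libraries in which the region was called, with the number of regions under each pair of bars. Of the kinds drawn, those with a call in GSK-J4 replicate 1 stand at 46.5% or more for H3K4me1 and those without it at 5.41% or less, while regions called in a single DMSO library, which are not drawn, stood at 16.4% for replicate 1 and 7.23% for replicate 2. Over all merged regions the share was 73.4%.

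Narrow peaks gave a second look at the gained regions, since they do not depend on the window minimum, although they too depend on depth. A narrow peak summit lay in 39.9% and 46.7% of the 848 gained regions in DMSO replicates 1 and 2, in 70.6% in GSK-J4 replicate 1 and in 63.8% in GSK-J4 replicate 2. The GSK-J4 libraries were also the higher pair in the regions called in all 4, at 90.0% and 80.8% against 73.7% and 77.3% in DMSO. In the lost regions GSK-J4 replicate 1 was the highest, at 64.9%, and GSK-J4 replicate 2 the lowest, at 43.2%, against 45.9% and 48.6% in DMSO. The median summit in the gained regions was 4 overlapping tags in both DMSO libraries, 6 in GSK-J4 replicate 1 and 5 in GSK-J4 replicate 2. Per 1000000 reads the medians of the gained regions were 1.76 and 1.55 in DMSO and 1.55 and 1.77 in GSK-J4, and these overlapped. In the 37 lost regions the median summit was 4 and 5 tags in DMSO and 4 in each GSK-J4 library. These regions were chosen by calls in the same libraries, so their summits are no separate support for a loss. Per 1000000 reads their medians were 1.76 and 1.94 in DMSO and 1.04 and 1.41 in GSK-J4, and the part of depth in this was not tested. In regions called in all 4 libraries the medians on this scale were 3.52 and 3.10 in DMSO and 2.33 and 2.83 in GSK-J4, both GSK-J4 libraries being the lower. In every library the median summit of gained regions was thus lower than that of regions called in all 4, and 46.6% to 52.9% of all summits in the 4 libraries rested on 3 tags or fewer.

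The widest gained regions were unequal between the replicates. The first, 25.4 kb at chr21:43823001-43848400 over UBASH3A, a regulator of T-cell receptor signalling, held no DMSO island, 8.6 kb of islands in GSK-J4 replicate 1 and 24.6 kb in GSK-J4 replicate 2. The second, 19.8 kb at chr9:120123401-120143200 inside ASTN2, a neuronal migration gene, held 6 kb and 19.8 kb. The others were an intergenic stretch of 18.6 kb at chr16:87060801-87079400, 17.2 kb at chr1:158035801-158053000 in KIRREL1, a cell adhesion gene, 16.4 kb at chr22:23151801-23168200 and 16.4 kb at chr8:25932001-25948400, the last being 29.1 kb from EBF2, a neurogenic transcription factor. In all 6, GSK-J4 replicate 2 covered more than GSK-J4 replicate 1, whose islands filled 24.4% to 37.6% of the region. All but 1 of them overlapped H3K27me3 islands of both control siRNA libraries, the exception being the one in ASTN2. Narrow peaks did not always follow the islands. The regions on chromosomes 21 and 22 held no summit in any library, and the one in KIRREL1 held 1, of 3 tags, in DMSO replicate 1 alone. The remaining regions held summits in DMSO replicate 1 and in GSK-J4 replicate 2.

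The widest lost regions were smaller. They were 15 kb at chr10:133219601-133234600, 109.6 kb from TCERG1L, then 13.8 kb at chr17:38930401-38944200 over the hair keratin gene KRT27, 12.6 kb at chr14:56991601-57004200 in TMEM260, and 11.6 kb at chr1:200211401-200223000, 64.9 kb from NR5A2, a nuclear receptor gene. The DMSO libraries covered 5.2 kb and 13.6 kb of the first, 13.8 kb and 9.2 kb of the second, 6 kb and 8 kb of the third and 7.8 kb and 11.6 kb of the fourth. All 4 were islands in both control siRNA H3K27me3 libraries. No DMSO summit was called in any of them, and a GSK-J4 summit was called in each.

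By chromosome, covered length rose broadly in GSK-J4 replicate 2 and on part of the karyotype in GSK-J4 replicate 1. GSK-J4 replicate 2 exceeded both DMSO libraries on 22 of 23 chromosomes, the exception being chromosome 18. GSK-J4 replicate 1 exceeded both on 14, lay between them on 8 and below both on chromosome 19. The groups did not overlap on 14 chromosomes and overlapped on 9, the 9 being chromosomes 12, 13, 16 to 22. Copy number was not measured, so ratios within a chromosome are the main comparison. Where levels are set side by side between chromosomes, copy number and the mark cannot be told apart.

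The highest ratios of group means were on chromosomes X, 3 and 1. The X chromosome carried little of the mark, 0.303 Mb and 0.332 Mb in DMSO, 0.440 Mb in GSK-J4 replicate 1 and 0.410 Mb in GSK-J4 replicate 2, a ratio of 1.34. Chromosome 3 carried 2.06 Mb and 2.22 Mb in DMSO, 2.71 Mb and 2.66 Mb in GSK-J4, a ratio of 1.255. Chromosome 1 carried 5.03 Mb and 5.71 Mb, then 6.27 Mb and 7.01 Mb, a ratio of 1.24. The lowest ratios were 1.01 on chromosome 18, 1.02 on chromosome 19 and 1.05 on chromosome 17. Chromosome 19 carried 3.45 Mb and 3.68 Mb in DMSO, 3.39 Mb in GSK-J4 replicate 1 and 3.89 Mb in GSK-J4 replicate 2. Chromosome 17 carried 4.13 Mb and 4.44 Mb, then 4.27 Mb and 4.72 Mb, and chromosome 18 0.382 Mb and 0.429 Mb, then 0.408 Mb and 0.413 Mb.

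Chromosomes already densely covered in DMSO had the smaller ratios in GSK-J4 replicate 1. Chromosome 19, which is rich in genes, was covered over 5.84% and 6.22% in DMSO and chromosome X over 0.195% and 0.214%. Across the 23 chromosomes, the mean DMSO coverage and the ratio to DMSO had a Spearman rho of -0.589 for GSK-J4 replicate 1 and -0.247 for GSK-J4 replicate 2. The ratios of the replicates had a rho of 0.716 with each other. These are descriptions over chromosomes of single libraries, and the ratios share the DMSO denominator. Gained regions made up 4.07% of the regions on chromosome 13 and 7.45% of those on chromosome 1, the lowest and highest shares.

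**Figure D3:**
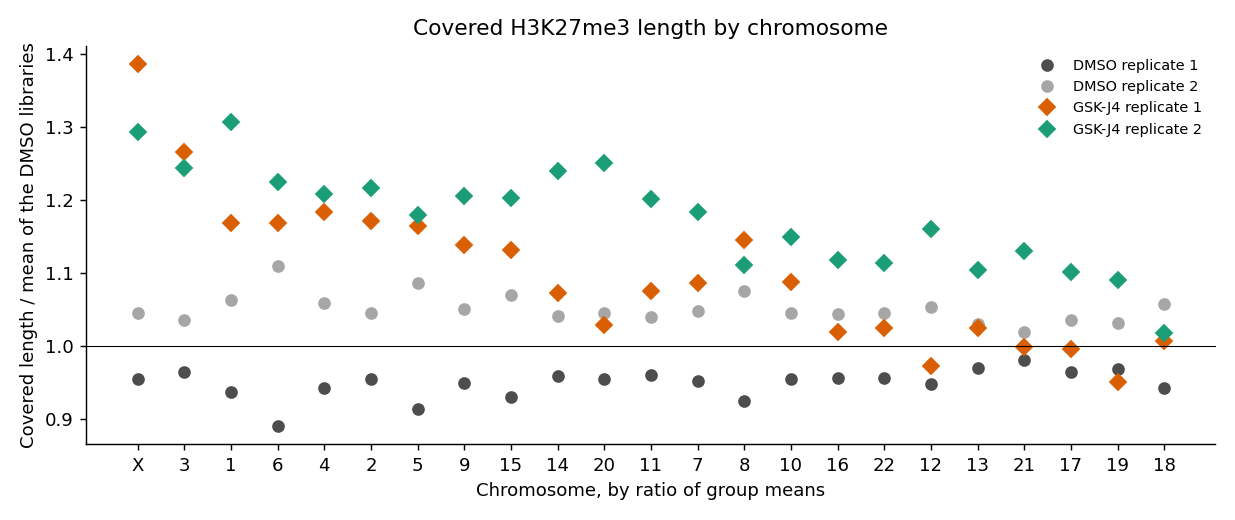
Covered H3K27me3 length on each chromosome divided by the mean of the DMSO libraries (vertical axis, which does not start at 0), with 1 point per library and chromosomes ordered by the ratio of group means. GSK-J4 replicate 2 lies above both DMSO points on 22 of 23 chromosomes and GSK-J4 replicate 1 on 14.

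Genes were read in 2 ways, by whether an island lay within 1 kb of an annotated start and by coverage, the percent of the gene body plus 5 kb of flank at either end lying in islands. An island lay at a start of 3088 and 3175 of 20136 protein-coding genes in DMSO, 4615 in GSK-J4 replicate 1 and 3228 in GSK-J4 replicate 2 (exact permutation p = 0.3333). The difference of group means, 790 genes, turned to -259.5 with equal numbers of islands, with 3088 and 3118 genes in DMSO, 2648 in GSK-J4 replicate 1 and 3039 in GSK-J4 replicate 2. With equal covered length the difference stayed upward, at 255 genes. GSK-J4 replicate 2 exceeded DMSO replicate 2 by 53 genes, and the DMSO libraries differed from each other by 87. A start was newly called in both GSK-J4 libraries for 0.869% of genes and lost in both for 0.129%. With equal numbers of islands the gained starts numbered 39. In GSK-J4 replicate 1 alone against both DMSO libraries, 6.9% were newly called and 0.273% lost, and in GSK-J4 replicate 2 alone 1.34% and 0.819%. Starts called in DMSO replicate 1 and GSK-J4 replicate 1 only numbered 112, and those in DMSO replicate 2 and GSK-J4 replicate 1 only 111, against 175 gained starts. The matching numbers with GSK-J4 replicate 2 were 28 and 38. Of the gained starts 70.9% carried H3K4me1 in both DMSO libraries, as did 15.4% of the lost starts, 66.3% of those called throughout and 20.5% of the starts of all genes. The share was 72.7% for starts called in GSK-J4 replicate 1 only and 31.9% for those in GSK-J4 replicate 2 only.

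The genes with the widest gap between the groups were chosen by a fixed rule, as those with the largest distance from the higher DMSO to the lower GSK-J4 coverage and at least 5 kb more in both. Coverage was higher in both GSK-J4 libraries than in both DMSO libraries for 5.52% of all genes and lower in both for 4.03%. C8G, which encodes a chain of complement component 8, was covered over 22.3% and 23.98% in DMSO, 83.3% in GSK-J4 replicate 1 and 91.8% in GSK-J4 replicate 2. Its neighbour FBXW5, a substrate receptor of a ubiquitin ligase, was covered over 2.73% and 4.125%, then 53.1% and 60.1%. Both genes share the same stretch of DNA and are not independent.

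RHOB, a small GTPase, went from no island in either DMSO library to 56.6% in GSK-J4 replicate 1 and 64.7% in GSK-J4 replicate 2. TMEM198, a membrane protein gene, was covered over 11.9% and 21.4% in DMSO and 68.6% and 69.8% in GSK-J4. UBE2M, the enzyme that conjugates NEDD8, had no DMSO island and 43.8% and 82.5% in GSK-J4. NHLH1, a neuronal basic helix-loop-helix transcription factor, had none in DMSO and 41.5% and 36.4% in GSK-J4. Narrow peaks did not always follow the islands. RHOB held 1 summit of 5 tags in DMSO replicate 2, and NHLH1 held summits of up to 5 tags in DMSO replicate 1, and both had more summits in each GSK-J4 library. UBE2M held 1 narrow peak, of 7 tags, in DMSO replicate 1 and none in the other libraries, and FBXW5, PRSS53 and FNDC11 held none in any library. The remaining 6 genes of the 12 were PRSS53 and its neighbour ZNF646, FNDC11, ST6GALNAC4, RELT and ASPG, all without a DMSO island and with 35.4% to 68.9% in the GSK-J4 libraries.

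The 8 genes with the widest gap downward had to lose at least 2 kb. RNASE2, an eosinophil ribonuclease, was covered over 63.5% in both DMSO libraries and had no island in either GSK-J4 library. KRT27, a hair follicle keratin, was covered over 85.1% and 58.4% in DMSO and had none in GSK-J4. TMEM158, RPS12 and EDN1, the last encoding the vasoconstrictor endothelin-1, also had none in GSK-J4. Their DMSO coverage was 71.05% and 50.75% at TMEM158, 57.7% and 40.7% at RPS12 and 41.6% and 39.2% at EDN1. ASPDH fell from 64.2% and 65.7% to 13.75% and 0, TM4SF5 from 75.01% and 96.25% to 31.9% and 16.45%, and RARRES2, the gene of the adipokine chemerin, from 59.9% and 64.4% to 16.5% and 19.5%. Narrow peaks did not always follow the islands. TMEM158 held none in any library, and RNASE2 held 1, of 3 tags, in DMSO replicate 1 alone. KRT27 held 2, of up to 5 tags, in GSK-J4 replicate 1 alone, and ASPDH 1 in GSK-J4 replicate 2 alone. TM4SF5 held 2 and 1 in DMSO and 4 and 2 in GSK-J4, and RPS12, EDN1 and RARRES2 held summits in both groups. At each of the 8 genes the groups do not overlap in coverage, which is how they were chosen, and each has the smallest p the exact permutation test allows, 0.3333.

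**Figure D4:**
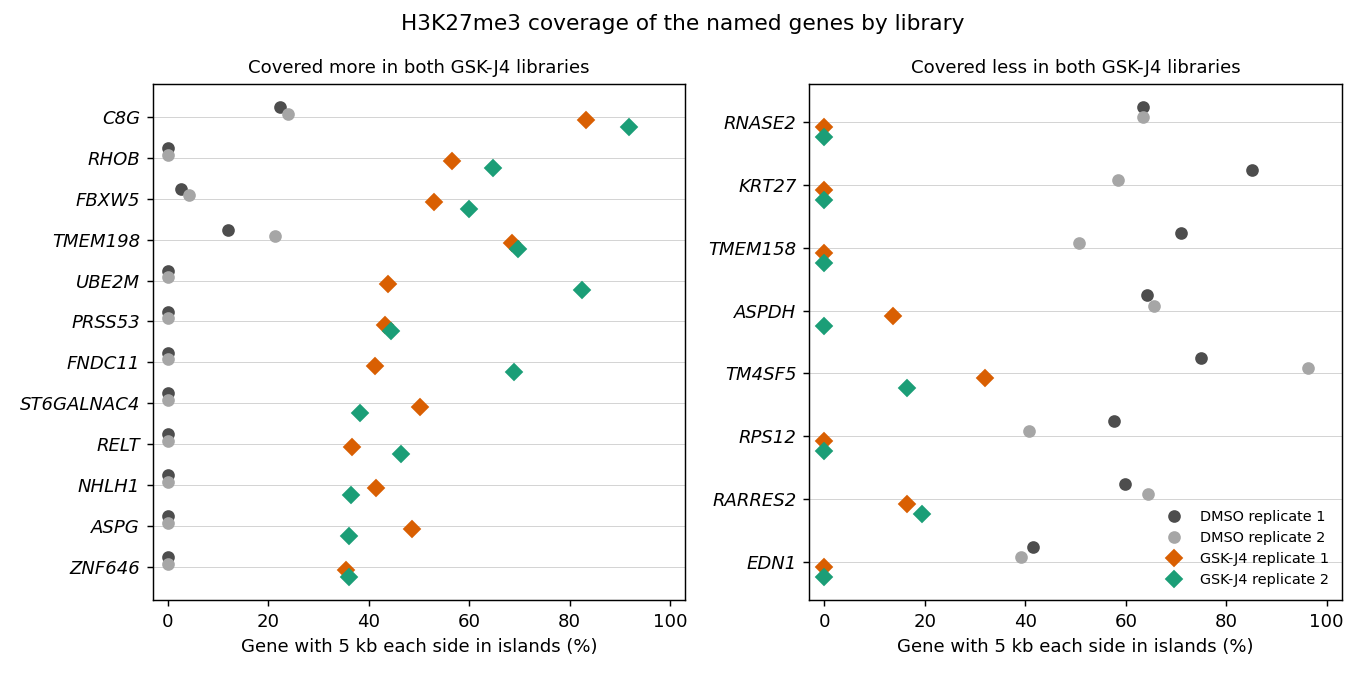
Percent of each gene body plus 5 kb of flank at either end lying in H3K27me3 islands (horizontal axis), with 1 point per library, for the 12 genes with the widest gap upward (left) and the 8 with the widest gap downward (right). Circles are DMSO and diamonds GSK-J4 libraries, and 9 of the 12 genes on the left sit at 0 in both DMSO libraries.

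Genes that only a single GSK-J4 library covered were many in replicate 1 and few in replicate 2. With at least 5 kb covered there and nothing in the other 3 libraries, 185 genes were found in GSK-J4 replicate 1 and 27 in GSK-J4 replicate 2. The leading genes of replicate 1 were ATP6V1F, a subunit of the vacuolar proton pump, covered over 57.0%, TRADD, an adaptor of the TNF receptor, over 56.0%, SLC35B2, a sulphate donor transporter, over 52.4%, and PARD6A, a cell polarity protein, over 51.4%. TMEM276, NAT8L, LRFN4 and LRRC10B followed with 45.6% to 48.9%. The leading genes of replicate 2 were MT4, a metallothionein, over 73.6%, AHSG, the plasma protein fetuin-A, over 62.4%, APOBR, a lipoprotein receptor, over 59.2%, and UBALD1, over 58.2%.

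The classical Polycomb targets largely kept their called starts, as did genes at large. Of all starts called in both DMSO libraries, 2606 were also called in both GSK-J4 libraries. The rest were 139 missed by GSK-J4 replicate 2 only, 29 by GSK-J4 replicate 1 only and 26 by both. All 33 HOX genes with an island at the start in DMSO replicate 1 kept it in the other 3 libraries, and 71 of 95 other homeobox genes were called in all 4. No HOX start was gained and none lost, and the 1 homeobox start gained was that of TLX2, a neural crest regulator. Coverage was lower in both GSK-J4 libraries for 11 of the 39 HOX genes and higher in both for none. In GSK-J4 replicate 1, 23 of 39 HOX genes lay below both DMSO libraries and 1 above, and in GSK-J4 replicate 2, 11 lay below and 3 above. Over all genes the shares were 11.4% below and 17.3% above in replicate 1, and 5.42% and 12.7% in replicate 2, but a gene without a DMSO island cannot lie below and a fully covered one cannot lie above. Among the 4562 genes with an island in both DMSO libraries, 50.4% lay below in replicate 1 and 23.9% in replicate 2, against 67.7% and 32.4% of the 34 such HOX genes. Of those 34, 14 were fully covered in both DMSO libraries. The difference between HOX and the other covered genes was not tested. The members of a cluster overlap one another's flanks and are not independent. HOXC8 was covered over 73.9% and 89.8%, then 52.1% and 40.5%.

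Other developmental transcription factors varied. Of the 20 TBX and GATA genes, 6 lay below both DMSO libraries and 5 above in GSK-J4 replicate 1, and 6 and 4 in GSK-J4 replicate 2. Among the 13 of them with an island in both DMSO libraries, 46.2% lay below in each replicate, against 50.4% and 23.9% of all such genes. Of the 95 other homeobox genes, 52 lay below both DMSO libraries and 8 above in GSK-J4 replicate 1, against 20 and 17 in GSK-J4 replicate 2. Among the 76 of them with an island in both DMSO libraries, 68.4% lay below in replicate 1 and 26.3% in replicate 2. The shares of all such genes were 50.4% and 23.9%, and the difference was not tested. LHX1, a kidney and neural regulator, was covered over 100% in both DMSO libraries and 88.8% and 87.7% in GSK-J4. SIX6, an eye regulator, was covered over 91.7% and 90.2%, then 78.8% and 59.8%. SOX1, a neural stem cell factor, was covered over 100% in DMSO and 72.5% and 65.7% in GSK-J4, and it is the 1 member of the 65 SOX and FOX genes whose start call was lost in both, while the start of SOX15 was the 1 gained in both. FOXQ1 was covered over 85.8% and 84.3%, then 63.2% and 55.8%. Against these, SOX15 had 0 and 12.6% in DMSO and 38.6% and 64.7% in GSK-J4, and FOXS1 49.6% and 42.5%, then 69.1% and 86.8%. Of the 9 PAX genes, PAX3 and PAX6 were lower and PAX8 was higher in both GSK-J4 libraries, each by under 3 percentage points between the nearest libraries.

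The retinoic acid and WNT lists had more members below DMSO in GSK-J4 replicate 1 and more above it in GSK-J4 replicate 2, as did all genes with an island in both DMSO libraries. Of those genes 50.4% lay below in replicate 1, and of those not fully covered 21.5% lay above, against 23.9% and 42.3% in replicate 2. Of 17 retinoic acid genes, GSK-J4 replicate 1 lay below both DMSO libraries in 7 and above in 1, and GSK-J4 replicate 2 lay above in 8 and below in none. CYP26B1, an enzyme that degrades retinoic acid, was covered over 34.9% and 35.6% in DMSO, 34.2% in GSK-J4 replicate 1 and 54.5% in GSK-J4 replicate 2. RXRG, a retinoid receptor, was covered over 15.1% and 15.4%, then 6.61% and 29.8%. Of 38 genes of the WNT pathway, 17 were below and 7 above in GSK-J4 replicate 1, and 4 below and 16 above in GSK-J4 replicate 2. Of the 38, 4 were above in both and 4, SFRP5, WIF1, WNT1 and WNT2, below in both, against 5.52% and 4.03% of all genes. Most of all genes had no DMSO island and could not lie below, whereas 24 of the 38 had one in both DMSO libraries. WNT1 was covered over 100% in DMSO and still over 99.98% in GSK-J4 replicate 2. SFRP5, a secreted WNT antagonist, was covered over 53.8% and 67.9% in DMSO and 49.8% and 44.6% in GSK-J4. Members above in both included the ligands WNT4, with no DMSO island and 16.4% and 25.6% in GSK-J4, and WNT6, at 42.4% and 40.8%, then 59.1% and 57.4%.

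**Figure D5:**
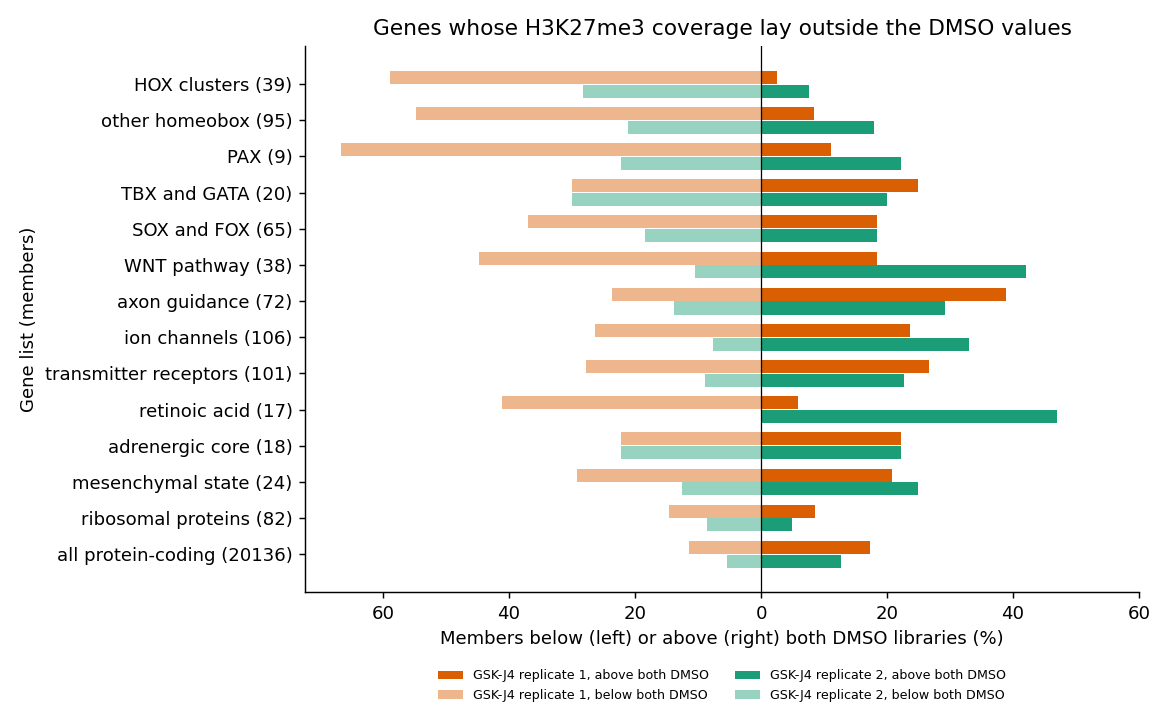
Percent of the members of each gene list whose H3K27me3 coverage lay below both DMSO libraries (left, pale) or above both (right, full colour), for GSK-J4 replicates 1 and 2, with all protein-coding genes, most of which had no DMSO island and could not lie below, at the bottom. In the HOX list 23 of 39 genes lay below in replicate 1 and 11 in replicate 2, and in the retinoic acid list 7 of 17 lay below in replicate 1 and 8 above in replicate 2.

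Axon guidance genes, which steer growing nerve fibres, had their highest number of called starts in GSK-J4 replicate 1, as did all genes. An island lay at the start of 30 and 32 of 72 members in DMSO, 44 in GSK-J4 replicate 1 and 31 in GSK-J4 replicate 2, against 15.3% and 15.8%, 22.9% and 16.03% of all genes, and 2 starts were gained in both. Coverage was higher in both GSK-J4 libraries for 13 members, or 18.1%, and lower in both for 6, or 8.33%, against 5.52% and 4.03% of all genes, most of which had no DMSO island. SEMA7A, a membrane-anchored semaphorin, was covered over 19.6% and 0 in DMSO and 32.9% and 35.8% in GSK-J4, whereas EPHA1, an ephrin receptor, was covered over 46.9% and 56.7%, then 32.9% and 18.2%. For the clustered protocadherins the count rests on few loci. Coverage was higher in both GSK-J4 libraries for 22 of 53, but none of the 53 starts was called in any library, and the 22 genes share the same covered stretch at the end of the gamma cluster, which measured 8.8 kb and 10.9 kb in DMSO and 11.6 kb and 12.9 kb in GSK-J4 within PCDHGC5.

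The genes that mark the cell states of neuroblastoma differed widely in the mark. An island lay at the start of 9, 9, 10 and 11 of 18 genes of the adrenergic list and of 12, 11, 14 and 12 of 24 genes of the mesenchymal list, in DMSO replicates 1 and 2 and GSK-J4 replicates 1 and 2, and no start of either list was gained or lost in both GSK-J4 libraries. ISL1, a regulator of the adrenergic state, had an island in GSK-J4 replicate 1 alone, over 36.5%. HAND2 was covered over 24.9% and 26.7% in DMSO and 26.7% and 33.3% in GSK-J4, and TBX2 over 70.4% and 82.7%, then 71.3% and 76.6%. Of the mesenchymal markers, SNAI2 and CD44 had no island in any library, PRRX1 was covered over 17.5% to 20.2% in all, and TWIST1 and FN1 had islands in GSK-J4 replicate 1 alone. Of the 24 mesenchymal genes, coverage was higher in both GSK-J4 libraries for 2 and lower in both for 3, and of the 18 adrenergic genes for 1 and 2, against 5.52% and 4.03% of all genes. Most of all genes had no DMSO island and could not lie below, whereas 12 genes of each list had one in both DMSO libraries. AXL, a receptor tyrosine kinase, was covered over 7.23% and 6.85% in DMSO and 9.13% and 17.5% in GSK-J4, COL1A1, a collagen chain, over 0.701% and 7.96%, then 14.5% and 11.6%, and FOSL1, an AP-1 subunit, over 99.6% and 100%, then 54.0% and 80.6%. Of 60 E2F target genes, which drive the cell cycle, 1 to 5 starts were called in a library, against 15.3% to 22.9% of the starts of all genes. None was gained in both GSK-J4 libraries, and coverage was higher in both for none, against 0.869% of all genes with a gained start and 5.52% with higher coverage.

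The enzymes that remove or write the mark were read in the same way. KDM6B was covered over 33.4% and 54.9% in DMSO, 54.9% in GSK-J4 replicate 1 and 77.2% in GSK-J4 replicate 2, with its start called in all 4, and GSK-J4 replicate 1 equalled the higher DMSO value. KDM6A, SUZ12 and EED had no island in any library, and EZH2 had 2 kb in GSK-J4 replicate 1 alone. JARID2, a cofactor of Polycomb repressive complex 2, was covered over 5.11% and 10.6% in DMSO and 16.9% and 23.2% in GSK-J4. AKT1, a kinase followed by the study, was covered over 8.79% and 13.4%, then 28.0% and 42.0%. MYCN, the amplified oncogene, was covered over 95.6% in each of the 4 libraries, with highest summits of 230 to 296 tags, and amplified copies and the mark cannot be told apart in these lists.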

How the data were processed

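Per the labels and the study's methods, CUT&Tag reads were aligned by the authors to hg19 with BWA 0.7.12, duplicates were removed with Picard 1.65, and fragments of 150 to 2000 bp were kept. Islands were called by the authors per library with SICER 1.1 (200 bp windows, 600 bp gaps, FDR 1e-05) and deposited with a score. Narrow peaks were deposited with a fold value and −log10 p and q values from MACS2 at q = 0.05 (version 2.1.1 in the submitters' processing notes, while the methods name another). Reads per region and the spike-in factors were not used here.

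Reads per library were solved from island scores, a step tested on simulated data along with the region calls, and precision is limited by 2270156 to 3860371 reads per library and 2 libraries per group. Gene models were GENCODE's on hg19. Group means were compared with exact two-sided permutation tests, whose p-values measure the spread between these samples only (Python 3.11.15, pandas 2.3.3, NumPy 2.4.6, SciPy 1.17.1, pysam 0.24.0, matplotlib 3.10.9). Named were the 12 genes with the largest gap upward, the 8 downward, the 8 covered by each GSK-J4 library alone, genes the study followed, up to 4 members per list, and the 6 widest gained and 4 widest lost regions. The members and the 20 gene lists were chosen with earlier results of these data known. Alternatives were fewer, longer or equalised islands, other start windows, narrow peaks, and leaving out each library. A few members and sequences are not reported here.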

Additional observations from a re-analysis of the deposited data

How the results depend on the processing

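The summary counts, lengths and widths were recomputed under the alternatives that apply to them. With 2 libraries a group no test could pass its threshold, so direction and size were compared. Values by chromosome, HOX cluster, gene list and named gene, the overlaps and the fate of wide domains were not recomputed. With the same number of islands from each library, the difference in covered length turned to -5.55 Mb and that in genes with a called start to -259.5. Leaving out 1 library at a time gave differences of -6.39 to 1.98 Mb in domains of 20 kb or more, -3800 to 600 bp in median width, 5.10 to 11.4 Mb in covered length, 719.5 to 9390 islands, 96.5 to 1484 called starts and 8358 to 28968 narrow peaks, and the upward values of the first and second came without GSK-J4 replicate 1. It gave 986 to 7140 gained regions, 74 to 320 lost regions and 269 to 1389 genes with a gained start. Gained regions numbered 183 with equal island numbers, 180 with equal covered length and 565 where a library's islands had to cover at least 50% of a region. Lost regions numbered 310, 74 and 256 under those settings and 97 with islands of at least 2 kb only. Genes with a gained start numbered 39 with equal island numbers, 60 with equal covered length and 667 from narrow peaks. The shared replicate numbers did not pair the samples (r = -0.0492 between deviations of same-numbered libraries over 2242 bins of 1 Mb). Paired by number nonetheless, covered length differed by 8.27 Mb, and the exact paired test cannot go below 0.5 with 2 pairs. Island number fell to 2461 with equal covered length, called starts to 255 with equal covered length and 375.5 with islands of at least 2 kb, and narrow peaks to 3088 at a −log10 q of at least 5, all in the same direction. Of 83 recomputed values, 4 turned direction and 20 counts of regions or genes, which have no sign to turn, moved by over 1.5 times. The cause was not tested. Island number under equal numbers, and covered length under equal length, are fixed by construction and have no value. Depth limits all lists, since weak enrichment near the calling threshold rests on a few tags.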

Other observations

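The olfactory receptor, zinc finger and ribosomal protein lists held few calls. Of all genes, 15.3% and 15.8% had an island at the start in DMSO, 22.9% in GSK-J4 replicate 1 and 16.03% in GSK-J4 replicate 2. Of 399 olfactory receptor genes, which lie in tandem clusters of silent genes, islands lay at the start of 5 or 6 in each of the 4 libraries. OR10P1 had no DMSO island and was covered over 41.35% in GSK-J4 replicate 1 and 76.1% in GSK-J4 replicate 2, whereas OR4D2 was covered over 27.7% and 53.1% in DMSO and had none in GSK-J4. Of 240 zinc finger genes on chromosome 19, 3 and 4 had an island at the start in DMSO, 9 in GSK-J4 replicate 1 and 1 in GSK-J4 replicate 2. Of 82 ribosomal protein genes, coverage was lower in both GSK-J4 libraries for 7 and higher in both for 1, against 4.03% and 5.52% of all genes. The 1 higher gene was RPL36, which had no DMSO island and was covered over 27.8% and 29.3% in GSK-J4. RPL18 was covered over 62.1% and 76.8% in DMSO and 47.9% and 41.9% in GSK-J4.

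Of 106 ion channel genes, 51 had a called start in each DMSO library, 59 in GSK-J4 replicate 1 and 50 in GSK-J4 replicate 2. Over all genes the shares were 15.3% and 15.8%, 22.9% and 16.03%. No ion channel start was gained in both GSK-J4 libraries, against 0.869% of all genes. HCN2, a pacemaker channel, was covered over 12.7% and 0 in DMSO and 23.4% and 32.5% in GSK-J4. Of 101 transmitter receptor genes, coverage was higher in both GSK-J4 libraries for 9 and lower in both for 8, against 5.52% and 4.03% of all genes. Most of all genes had no DMSO island and could not lie below, whereas 51 of the 101 had one in both DMSO libraries. CHRM4, a muscarinic receptor, was covered over 34.5% and 36.7% in DMSO and 45.9% and 74.8% in GSK-J4, and CHRM1 over 60.01% and 69.5%, then 44.4% and 54.8%. Of 10 cell-cycle inhibitor genes, 1 start was called in every library, against 15.3% to 22.9% of the starts of all genes.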
